A study of Mus musculus with 2 samples.

Results

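Heat shock proteins and DnaJ proteins were examined in the interscapular brown fat of double-knockout mice, in which the nuclear receptor RORa is among the deletions. The genes were taken by name: every probe spot that the array files name with a prefix Dnaj, Hspa, Hspb, Hspd, Hspe, Hsph or Hsp90, the older Hspca or Hspcb, or the name Cryab. This gave 66 spots of 57 probes for 40 gene names, out of 40979 probes in use. All 57 probes counted as measured, meaning well above the local background in at least 1 genotype on both arrays. A probe of Dnaja4 met this in the knockout alone. Wild-type mice (WT) and double-knockout mice (DKO, RORa-/- and lacking another gene) were C57BL/6 males, 4 per genotype, 2 to 3 months old by one label and 8 to 12 weeks by another, with tissue collected around circadian time 20. RNA of WT and DKO was mixed on each of 2 Agilent mouse arrays. Array 1 carried DKO in the red dye Cy5 and WT in the green dye Cy3, and array 2 had the dyes reversed. Whether the mice were pooled, whether both arrays used the same RNA, and which cells lacked the genes are not given in the sources used here.

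Molecular chaperones keep other proteins from misfolding. Hsp70 proteins bind short exposed stretches of a client protein in an ATP-driven cycle, and DnaJ proteins bring the client and set off the ATP hydrolysis. Hsp110 proteins exchange the nucleotide, Hsp90 finishes the folding of kinases and steroid receptors, small heat shock proteins hold unfolded clients, and the Hsp60 and Hsp10 chaperonin folds proteins in the mitochondrial matrix. Cytosolic members are classical targets of the heat shock factor HSF1, while those of the endoplasmic reticulum belong to the unfolded protein response. Brown fat makes heat in mitochondria that import most of their proteins, which then need Hsp70 and Hsp60 to fold.

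Promoter stretches that carry the binding letters of these pathways are shown to mark which members share those letters, to be set against the ratios. They were taken from RefSeq promoter windows (GRCm38.p6, 250 bases before to 50 after a gene start), which held 29 of the 40 genes. A pair of heat shock units, GAANNTTC or TTCNNGAA on either strand, occurred in windows of 8 of the 29 genes, Dnaja1, Dnaja4, Dnajb4, Dnajb6, Dnajc10, Hspb8, Hspd1 and Hspe1. The same letters occurred in 17.0% of all 27025 genes with a window, against 27.6% of these 29. Runs of GAANNTTCNNGAA, searched on both strands and overlapping those pairs, occurred in 0.603% of all 32851 windows and, among these genes, in windows of Dnajb6, Hspd1 and Hspe1. Capitals mark the heat shock units in the first 3 sequences, 5′ to 3′ on the gene's own strand. The first is the whole 215 bases between the starts of Hspd1 and Hspe1, which are transcribed in opposite directions, and it holds 4 alternating units in a row, a run found in 0.0244% of windows.

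Hspe1 and Hspd1, chr1:55087933-55088147, plus strand: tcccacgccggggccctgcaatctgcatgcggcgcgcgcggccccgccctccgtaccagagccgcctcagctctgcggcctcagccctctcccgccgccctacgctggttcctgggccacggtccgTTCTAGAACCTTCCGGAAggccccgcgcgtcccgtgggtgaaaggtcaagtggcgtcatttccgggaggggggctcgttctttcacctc
Dnajb6, chr5:29735822-29735894, plus strand: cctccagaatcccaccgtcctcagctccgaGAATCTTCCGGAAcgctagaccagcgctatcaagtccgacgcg
Dnaja1, chr4:40722314-40722381, plus strand: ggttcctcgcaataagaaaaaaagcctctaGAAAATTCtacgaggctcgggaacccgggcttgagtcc

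The endoplasmic reticulum stress element, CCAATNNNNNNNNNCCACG on either strand, occurred in 0.119% of all windows and in those of Hspa5 and Dnajc3, both genes of that compartment. Capitals mark the element in both sequences.

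Hspa5, chr2:34771995-34772073, plus strand: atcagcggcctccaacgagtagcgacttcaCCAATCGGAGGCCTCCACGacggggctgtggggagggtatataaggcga
Dnajc3, chr14:118937797-118937875, plus strand: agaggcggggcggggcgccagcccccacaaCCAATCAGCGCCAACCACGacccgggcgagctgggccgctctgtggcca

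A match is a description of letters and not evidence of binding in this tissue.

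No heat shock or DnaJ gene differed between the genotypes by the size rule. The rule asked for a mean of at least 2-fold, at least 1.5-fold the same way on each array, and a signal well above background in the higher genotype. It took 0 of the 57 probes in either direction, where 0.0987% of 32424 measured probes were higher in DKO and 0.0216% lower. At a mean of 1.5-fold with 1.2-fold on each array, 0 members passed either way, against 0.336% of all measured probes higher and 0.234% lower. With the scanner software's own ratios, 1 member passed as higher, Dnajb9, against 0.691% of all measured probes. At the lowest size used, a mean log2 of 0.32 with 0.14 on each array, 1 probe was higher, that of Hsp90aa1, and 0 were lower, against 1.02% and 0.879% of all measured probes. This count depended on the ratios used: with the software's ratios it was 4 higher, Hsp90aa1, Dnajb9, Hspb7 and Dnajc3, against 2.41% of all measured probes, and with median centring in place of loess it was 8, against 2.13%. Hsp90aa1 passed in each of the 6 other sets of ratios from both arrays, and no member passed as lower in any of them. Of these 6 sets, the software's ratios and the deposited series value table hold nearly the same values. With 1 replicate per genotype, no test between the genotypes was possible. By the scanner software's own error model, which covers measurement error on 1 array, 0 members had a deposited p under 0.01 on both arrays in the same direction, against 0.493% of measured probes higher and 0.423% lower.

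Every ratio below is DKO over WT on the log2 scale, where 1 stands for a doubling, and ± marks the SD of the 2 arrays. Dye effects and measurement error enter this SD, and spread between animals may not. The array number limits the precision. Levels are normalised log2 intensities, which rank the same probe across genotypes and not different probes. A lower share of a cell type and less RNA per cell cannot be told apart in whole tissue.

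The arrays gave opposite signs for 61.4% of the chaperone probes, near the 62.7% of all measured probes. Of the 57, 18 lay above 0 on both arrays, 4 below 0 on both, and 35 had opposite signs. The background was 19.5% above 0 on both and 17.8% below 0 on both among all measured probes, against 31.6% and 7.02% of the members. The shares of all measured probes are also the background for the counts by family and list below. The excess above 0 came from array 2, on which 44 of 57 members lay above 0 against 49.7% of all measured probes. On array 1, 27 of 57 did, against 52.0%. The median of the member means was 0.0533, beside 0.0026 for all measured probes. It was −0.0137 on array 1 alone and 0.11 on array 2 alone.

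**Figure D1:**
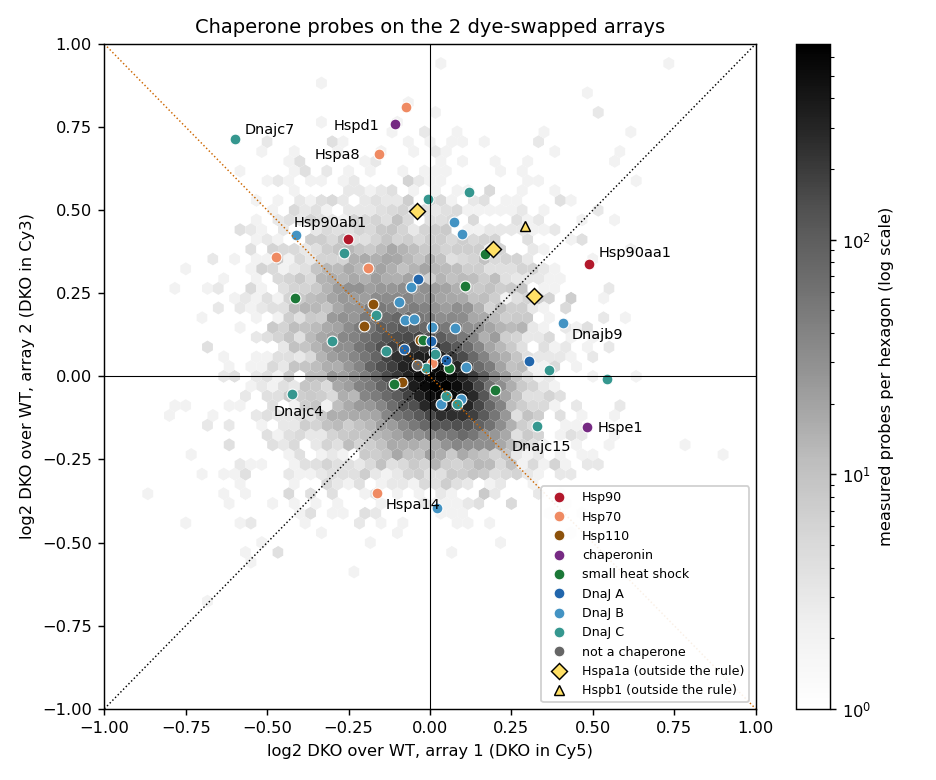
Log2 ratio of DKO over WT on array 1 (horizontal) against array 2 (vertical) for the 57 chaperone probes, coloured by family, over all measured probes in grey (only those within 1 log2 unit of 0 are drawn). Points on the black dotted line agree between arrays, and points on the orange dotted line follow the dye. Hsp90aa1 lies in the upper right, while Dnajc7, Hspa8 and Hspd1 lie on the dye side, and yellow symbols are Hspa1a and Hspb1 probes that the gene names in the file leave out.

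A probe whose ratio follows the dye reads as higher in DKO on 1 array and lower on the other. Of the 35 members with opposite signs, 26 were brighter in Cy3 on both arrays and 9 in Cy5, which makes 45.6% and 15.8% of the 57. Among all measured probes these shares were 30.2% and 32.5%. The clearest case was Dnajc7, a cochaperone that binds both Hsp70 and Hsp90, at −0.60 on array 1 and 0.71 on array 2, a mean of 0.0575 ± 0.93. Dnajb2, a DnaJ protein best known from neurons, read −0.41 and 0.43.

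**Figure D2:**
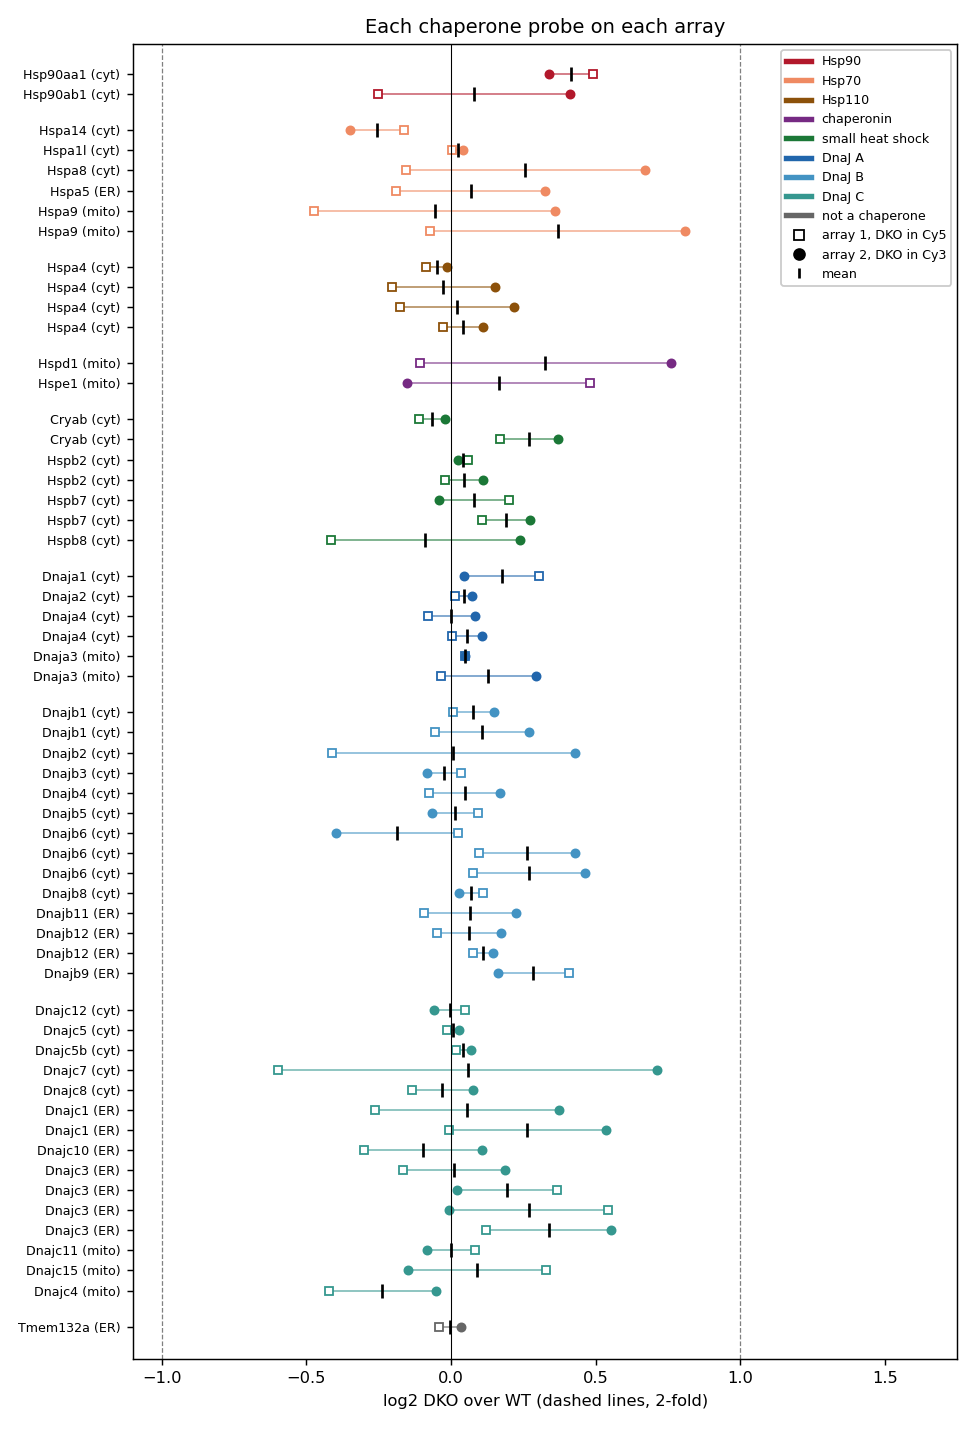
Log2 ratio of DKO over WT of each of the 57 probes on array 1 (open squares) and array 2 (filled circles), with the mean as a black tick. Probes are grouped by family and labelled with gene and compartment (cyt, cytosol or nucleus, ER, endoplasmic reticulum, and mito, mitochondrion). No mean reaches the dashed 2-fold lines, and 35 of the 57 bars cross 0.

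The Hsp90 pair differed in how well the arrays agreed. Hsp90aa1, the stress-inducible cytosolic Hsp90 (named Hspca in the file, gene ID 15519), had a level of 11.40 in WT and 11.89 in DKO on array 1, and 11.52 and 11.86 on array 2. Both DKO levels were above both WT levels. The ratios were 0.49 and 0.34, a mean of 0.41 ± 0.11, or 1.33-fold. The scanner software's ratios for it were 0.52 and 0.33. Hsp90ab1, the constitutive cytosolic form (Hspcb in the file, gene ID 15516), had levels of 11.98 in WT and 11.73 in DKO on array 1, and 11.61 and 12.02 on array 2. The genotypes overlapped, and the ratios of −0.25 and 0.41 gave a mean of 0.08 ± 0.47. The endoplasmic reticulum form of Hsp90, now Hsp90b1, is named Tra1 in the file and so lies outside the name rule. The probe of that name read 0.22 and 0.13. A brighter probe of the gene, also outside the name rule, had opposite signs, at −0.11 and 0.17.

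Among the Hsp70 proteins, the constitutive one was split between the arrays as well. Hspa8, the constitutive cytosolic Hsp70 (gene ID 15481), stood at 13.16 in WT and 13.01 in DKO on array 1, and at 12.70 and 13.37 on array 2. The ratios were −0.16 and 0.67, and the mean was 0.26 ± 0.58. Hspa14, an Hsp70 of the ribosome-associated complex (gene ID 50497), was the member with the lowest mean. Its levels were 8.57 in WT and 8.41 in DKO on array 1, and 8.80 and 8.45 on array 2, so both DKO levels were below both WT levels. The ratios of −0.16 and −0.35 gave −0.26 ± 0.13, which fell short of the lowest size of 0.32. Hspa1l, an Hsp70 known mainly from testis, read 0.0047 and 0.0400.

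The organelle forms of Hsp70 were split between the arrays in the same way. Hspa5 (BiP), the Hsp70 of the endoplasmic reticulum, stood at 10.39 in WT and 10.20 in DKO on array 1 and at 10.13 and 10.46 on array 2. Its ratios were −0.19 and 0.33. Hspa9 (mortalin), which pulls proteins into the mitochondrial matrix, was read by 2 probes. The brighter gave −0.47 and 0.36, with a mean of −0.06 ± 0.59, and the other gave −0.07 and 0.81, with a mean of 0.37 ± 0.62. The first mean turned positive with median centring in place of loess, at 0.0858, a setting that also raised the median of all measured probes to 0.0412. Hspa4, an Hsp110 exchange factor for Hsp70, was read by 4 probes with means between −0.0505 and 0.0400. The median of those 4 was −0.0030, and it was above 0 under some other scalings, up to 0.0437.

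Hspd1 and Hspe1 encode the Hsp60 barrel and its Hsp10 lid, and they share the promoter printed above. Hspd1 (gene ID 15510) stood at 9.22 in WT and 9.11 in DKO on array 1, and at 8.95 and 9.71 on array 2. Its ratios were −0.11 and 0.76, for a mean of 0.33 ± 0.61. Hspe1 (gene ID 15528) went the other way from this Hspd1 probe on each array. It stood at 11.04 in WT and 11.52 in DKO on array 1, and at 11.36 and 11.20 on array 2. Its ratios were 0.48 and −0.15, for a mean of 0.17 ± 0.45. For both genes the genotypes overlapped, and the means hide opposite signs between the arrays. Hspd1 has another, brighter probe, named by a sequence accession in the file and so outside the name rule. Its average log2 intensity was 12.75, against 9.25 for the Hspd1 probe above. It read 0.21 and −0.0059, the same signs as Hspe1.

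**Figure D3:**
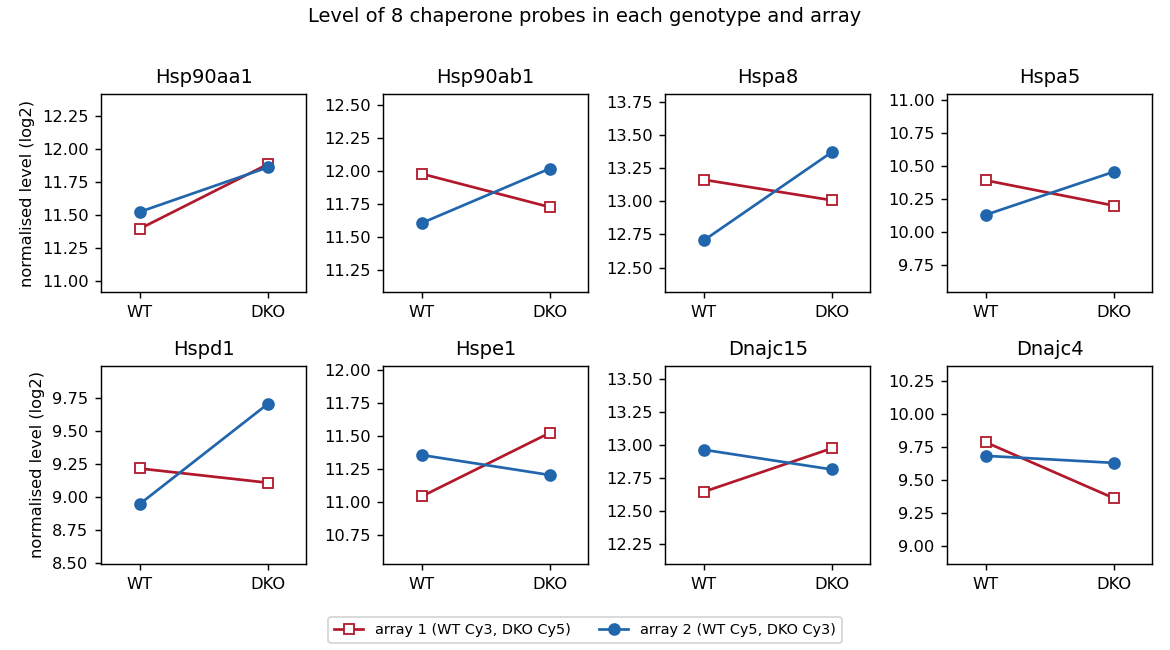
Normalised log2 level of 8 chaperone probes in WT and DKO on array 1 (red squares) and array 2 (blue circles), with each panel spanning 1.5 log2 units. The 2 lines run the same way for Hsp90aa1 and Dnajc4, and in opposite directions for Hsp90ab1, Hspa8, Hspa5, Hspd1, Hspe1 and Dnajc15.

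Small heat shock proteins hold partly unfolded proteins and several are abundant in muscle. Of 7 probes for Cryab, Hspb2, Hspb7 and Hspb8, 3 lay above 0 on both arrays and 1 below, with a median of 0.0439. These counts stand beside 19.5% and 17.8% of all measured probes. Cryab, the alpha-B crystallin of lens and muscle, was read by 2 probes that disagreed. The brighter had levels of 9.34 in WT and 9.51 in DKO on array 1, and 9.15 and 9.52 on array 2. Its ratios were 0.17 and 0.37, for a mean of 0.27 ± 0.14. The dimmer read −0.11 and −0.0217. Hspb2, a partner of Cryab encoded next to it, read 0.0415 and 0.0439 as the means of its 2 probes. Hspb8, which works with Bag3 in clearing damaged proteins, read −0.41 and 0.24.

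Hspb7, a small heat shock protein of heart and muscle, gave a view of the error within an array, because 1 of its probes was printed on 10 spots. The 10 spots averaged 0.11 ± 0.0545 (SD over spots) on array 1 and 0.27 ± 0.0463 on array 2. All 10 were above 0 on each array, between 0.0248 and 0.18 on array 1 and between 0.19 and 0.33 on array 2. Across the 40 probes printed on 5 or more spots, the median SD over spots was 0.0478 on array 1 and 0.0459 on array 2. The other Hspb7 probe read 0.20 and −0.0415.

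Skeletal muscle markers also lay above 0. Of 34 muscle names listed, 29 genes were measured. On both arrays 20 lay above 0 and 1 below, where 19.5% and 17.8% of all measured probes did. By the 2-fold rule 3 were higher in DKO, against 0.0987% of all measured probes. The median of the 29 was 0.25, and it was 0.14 on array 1 and 0.48 on array 2. Their summed level was 22924 in WT and 29887 in DKO on array 1, and 20938 and 33992 on array 2. The brightest, the fast troponins Tnnc2 and Tnni2, read 0.61 ± 0.0956 and 0.63 ± 0.25. The 3 past 2-fold were Eno3, the muscle enolase, at 1.21 ± 0.33, Myom2, a sarcomere protein, at 1.08 ± 0.0724, and Mb, the oxygen store myoglobin, at 1.004 ± 0.39. Slow fibre genes went both ways. Myh7 and Tnnt1 had means below 0, −0.31 ± 0.16 and −0.29 ± 0.61, with opposite signs on the arrays for Tnnt1. Mybpc1, Myl2 and Tnnc1 had means of 0.33 ± 0.0216, 0.25 ± 0.33 and 0.0082 ± 0.16. These slow fibre genes were named after their values were seen. The part of muscle RNA in the values of Cryab, Hspb7 and the other small heat shock genes was not tested.

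**Figure D4:**
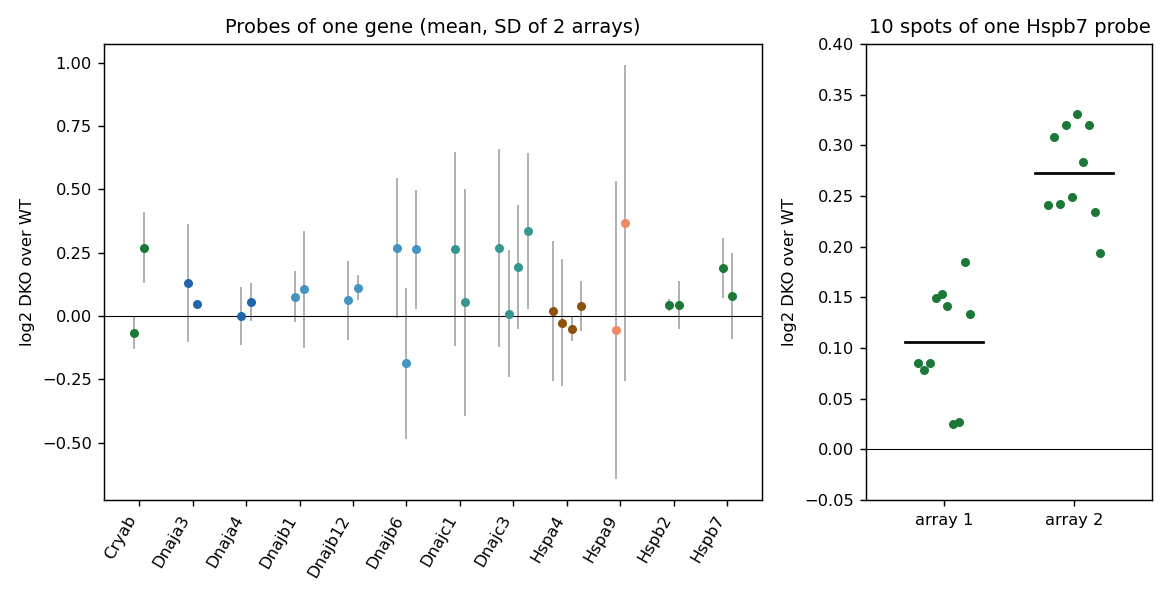
Left, mean log2 ratio of DKO over WT with the SD of the 2 arrays for each probe of the 12 genes with 2 or more probes, coloured by family. Right, the 10 spots of 1 Hspb7 probe on each array with their mean as a line. The probes of Cryab, Dnajb6, Hspa4 and Hspa9 fall on both sides of 0, while the 10 spots stay above 0.

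DnaJ proteins made up 35 of the 57 probes, of which 13 lay above 0 on both arrays, 1 below, and 21 had opposite signs. Their median was 0.0551. Among all measured probes, 19.5% lay above 0 on both arrays and 17.8% below. Class A, closest to bacterial DnaJ, had a median of 0.0517 over 6 probes, and 4 of the 6 lay above 0 on both arrays. Dnaja1, a main partner of cytosolic Hsp70 whose promoter stretch is printed above, stood at 8.57 in WT and 8.87 in DKO on array 1 and at 8.96 and 9.004 on array 2. Its ratios were 0.30 and 0.0457. Dnaja2, another cytosolic partner, read 0.0136 and 0.0732. Dnaja4 had 1 probe at 0.0023 and 0.11 and a dimmer one at −0.0799 and 0.0809. Dnaja3, the mitochondrial class A protein, read 0.13 ± 0.23 with 1 probe and 0.0482 with the brighter one, which gave 0.0479 and 0.0486.

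In class B, the probes of 1 gene disagreed more than those of any other. Dnajb6, a strong suppressor of protein aggregation, was read by 3 probes. A probe gave 0.0740 and 0.46, another gave 0.0971 and 0.43, and the third gave 0.0230 and −0.40. Their means spanned 0.46, the widest range among the 12 genes with several measured probes, and whether the probes read different transcripts was not tested. Dnajb1, the heat-inducible partner of Hsp70, was close to 0 on array 1 with both probes, at 0.0056 and −0.0571, and at 0.15 and 0.27 on array 2. Dnajb4, another cytosolic partner, read −0.0756 and 0.17, and a brighter probe of it outside the name rule read 0.19 and 0.0658. Dnajb5, a less studied relative, read 0.0945 and −0.0673. The testis proteins Dnajb3 and Dnajb8 read −0.0256 ± 0.0824 and 0.0686 ± 0.0587.

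Class B proteins of the endoplasmic reticulum were read by 4 probes, 2 above 0 on both arrays and 2 with opposite signs. Dnajb9 (ERdj4, gene ID 27362), which hands misfolded proteins to degradation, stood at 6.29 in WT and 6.70 in DKO on array 1, and at 6.54 and 6.70 on array 2. Both DKO levels were above both WT levels. The ratios were 0.41 and 0.16, for a mean of 0.28 ± 0.17. This probe is dim, and the scanner software's ratios, which carry no added offset, were larger at 0.86 and 0.50. Dnajb11, a partner of BiP, read −0.0954 and 0.22. Dnajb12, a membrane-bound DnaJ protein, read −0.0483 and 0.17 with 1 probe and 0.0765 and 0.15 with another.

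Class C proteins carry a J domain in otherwise unlike frames. Of 15 probes, 3 lay above 0 on both arrays, 1 below and 11 had opposite signs, with a median of 0.0413. The background shares were 19.5% above 0 on both arrays and 17.8% below. Dnajc3 (p58IPK), an endoplasmic reticulum protein that restrains the kinase PERK, had 4 probes, each with a mean above 0, between 0.0096 and 0.34. The probes read 0.54 and −0.0074, 0.37 and 0.0203, 0.12 and 0.55, and −0.17 and 0.19 on arrays 1 and 2. The first 2 were high on array 1 and near 0 on array 2, and the others were higher on array 2. Dnajc1, a translocon-bound DnaJ protein, read 0.26 ± 0.38 and 0.0533 ± 0.45 with its 2 probes. Dnajc10, a disulfide reductase with a J domain, read −0.0962 ± 0.29.

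Mitochondrial class C members went both ways. Dnajc15, a regulator of protein import (Dnajd1 in the file), was among the brightest members. It stood at 12.65 in WT and 12.98 in DKO on array 1, and at 12.97 and 12.82 on array 2. Its ratios of 0.33 and −0.15 had opposite signs. Dnajc4 (gene ID 57431) was the class C probe below 0 on both arrays, with 9.78 in WT and 9.36 in DKO on array 1, and 9.68 and 9.63 on array 2. Its ratios were −0.42 and −0.0534. Dnajc11, a protein of the mitochondrial membrane organising complex, read 0.0836 and −0.0841. Of the class C genes of the cytosol or nucleus, Dnajc8 read −0.0303 ± 0.15 and Dnajc12 read −0.0045 ± 0.0763. Dnajc5b read 0.0413 ± 0.0363, and the synaptic vesicle protein Dnajc5 read 0.0062 ± 0.0282 with a dim probe. Outside the name rule, a brighter Dnajc5 probe read −0.19 and 0.0642, and a dimmer Dnajc5b probe read −0.0549 and −0.0091. Hspa5bp1, now named Tmem132a, carries the name of a BiP-binding protein and is no chaperone of these families, and read −0.0026 ± 0.0537.

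By compartment, the median was 0.0415 over 35 probes of the cytosol or nucleus, 0.0673 over 13 of the endoplasmic reticulum and 0.0900 over 9 mitochondrial probes. On array 1 these medians were 0.0023, −0.0405 and −0.0363, and on array 2 they were 0.11, 0.17 and 0.0486. The median of the cytosol or nucleus was above 0 on both arrays, and the other medians lay on opposite sides of 0. Members with a heat shock pair in their promoter window had a median of 0.0551 over 11 probes, beside 0.0598 over 32 probes of members with a window and no pair. The other 11 genes, among them Hsp90aa1, Hsp90ab1, Hspa8 and Cryab, had no window to search. Their 14 probes had a median of 0.0414. Of the 2 genes with the stress element, Hspa5 read −0.19 and 0.33. For Dnajc3, 1 of its 4 probes was split the same way, at −0.17 and 0.19. The other Dnajc3 probes were not, at 0.54 and −0.0074, 0.37 and 0.0203, and 0.12 and 0.55.

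Several well-known heat shock genes carry sequence accessions in place of names in the file and so fall outside the name rule. Through RefSeq accessions listed beside the probes, 42 further probes of 31 genes were matched to such genes, 41 of them measured, with a median of 0.0104. These were added after the values were seen. Of the 41, 10 lay above 0 on both arrays and 6 below, where 19.5% and 17.8% of all measured probes did. Hspb1 (Hsp25), the small heat shock protein most strongly tied to stress, was past the lowest size of 0.32. It was the only one of the 42 with the ratios used here, against 1.02% of all measured probes higher. With the software's ratios 2 probes of Hspa1a and 1 of Hspb3 passed as higher too, and 1 of Dnajc22 as lower. Among all measured probes, 2.41% passed as higher and 2.1% as lower with those ratios. The levels of Hspb1 were 10.61 in WT and 10.90 in DKO on array 1, and 10.57 and 11.02 on array 2, with both DKO levels above both WT levels. The ratios were 0.29 and 0.45, for a mean of 0.37 ± 0.11, or 1.29-fold.

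Hspa1a, the stress-inducible cytosolic Hsp70, had 3 such probes, which may also read its near-identical neighbour Hspa1b. The brightest read 0.32 and 0.24, for a mean of 0.28 ± 0.0548. The next read 0.19 and 0.38, for a mean of 0.29 ± 0.13. The dimmest read −0.0388 and 0.50. Another probe of Hsp90ab1 read −0.33 and 0.87, again split between the arrays. Hsph1, an inducible Hsp110 named Hsp105 in the file, read 0.0225 and −0.0598, and Hspa2, the testis Hsp70, read −0.0459 ± 0.0209 and −0.0684 ± 0.0308.

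Other genes of protein quality control gave no call at 2-fold. The heat shock factors Hsf1 and Hsf4 and the binding protein Hsbp1 were measured. Hsf1, the main activator of the heat shock response, read −0.18 and 0.16, and Hsbp1, a small HSF1-binding protein, read 0.0857 and −0.16. Of 26 cochaperones, 6 lay above 0 on both arrays and 1 below, against 19.5% and 17.8% of all measured probes. The cochaperone median was 0.0166. Cdc37, which brings kinases to Hsp90, read −0.16 and 0.16, and Ahsa1, which speeds the Hsp90 cycle, read −0.21 and 0.64. Sugt1, an adaptor of Hsp90, was the only one of the 26 past the 1.5-fold rule, at 0.76 and 0.52. It was named after its value was seen. Among all measured probes 0.336% passed that rule as higher.

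The cytosolic chaperonin TRiC, which folds actin and tubulin, and its helper prefoldin had medians on opposite sides of 0 on the arrays. The median of 12 genes was −0.22 on array 1 and 0.41 on array 2, and 0.0987 for the means, with 1 gene above 0 on both arrays and 1 below. Cct5, a TRiC subunit, read 0.42 and −0.0575, and Pfdn5, a prefoldin subunit, read −0.38 and 0.16. Among 21 mitochondrial import and protease genes, both arrays put 4 above 0 and 4 below, with a median of 0.0265. Grpel1, the exchange factor of Hspa9, read −0.16 and 0.21, and Timm23, the inner membrane channel, read −0.34 and 0.0252.

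Genes of endoplasmic reticulum folding and of the unfolded protein response had a median of 0.0152 over 30. Against 19.5% and 17.8% of all measured probes, 9 of the 30 lay above 0 on both arrays and 3 below. The 9 include Hsp90b1 by its probe named Tra1, although a brighter probe of that gene had opposite signs. The brightest, Sec61b of the translocon and the proline isomerase Ppib, read −0.46 and 0.0426, and −0.17 and 0.0371. Herpud1, an adaptor of the degradation pathway and a common marker of the response, read 0.49 and 0.45, and was chosen after its value was seen. The markers Ddit3 and Xbp1, also outside the naming rule, read −0.0499 ± 0.12 and −0.0426 ± 0.16.

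Of 3 temperature-responsive RNA-binding proteins measured, 1 lay below 0 on both arrays. Rbm3, an RNA-binding protein induced by mild cold, read −0.42 and −0.31, for a mean of −0.36 ± 0.0755. The splicing factor Srsf5 read 0.0431 and −0.12. Cirbp, a relative of Rbm3 with a like cold response, read −0.0080 ± 0.0150 and was named outside the rule. Immediate early genes, which respond within minutes to handling and stress, had a median of 0.0158 over 19. Junb read 0.48 and −0.40, and Jund read 0.0914 and −0.0308. Nr4a1 was the only one of the 19 past the 1.5-fold rule, at 0.77 and 0.55, named after its value was seen. That rule took 0.336% of all measured probes as higher.

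**Figure D5:**
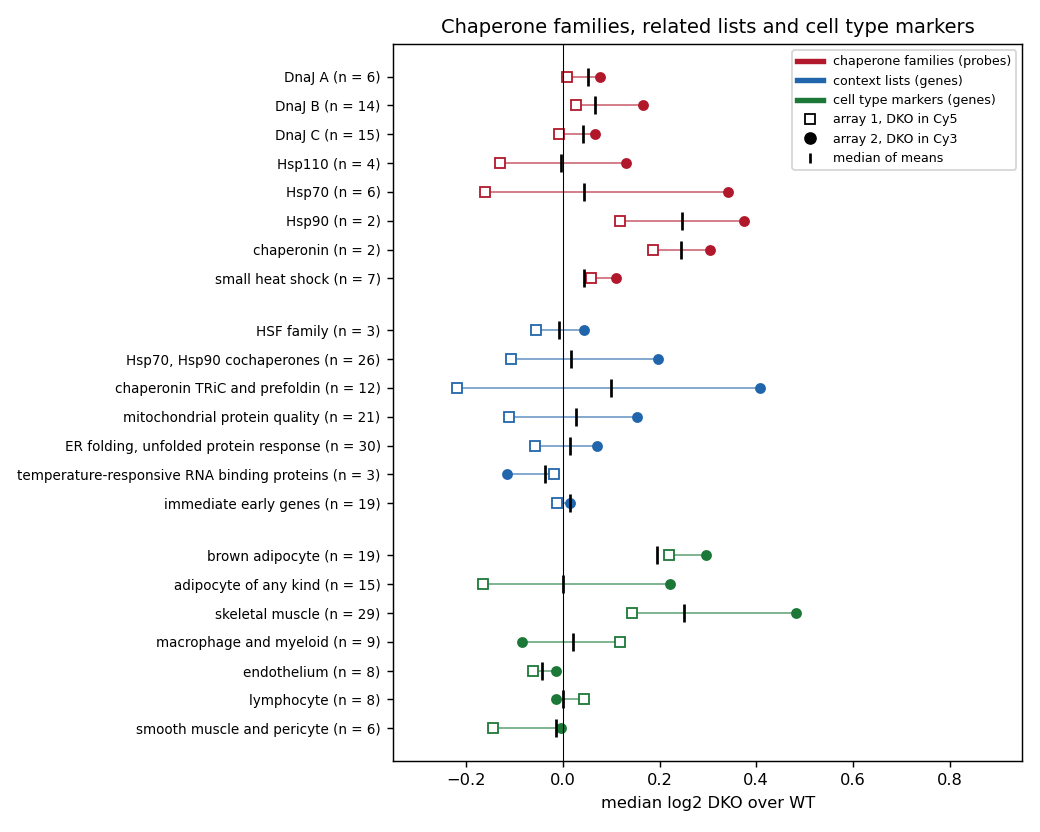
Median log2 ratio of DKO over WT on array 1 (open squares), on array 2 (filled circles) and of the array means (black ticks) for chaperone families (red), related gene lists (blue) and cell type markers (green), with the number of probes or genes. Skeletal muscle and brown adipocyte markers lie above 0 on both arrays, while Hsp70, Hsp110 and TRiC medians lie on opposite sides of 0.

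The tissue label and the genotype were checked on the same arrays. Of 19 brown adipocyte markers, all measured, 11 lay above 0 on both arrays and 2 below, against 19.5% and 17.8% of all measured probes. Against 0.0987% of all measured probes, 3 markers passed the 2-fold rule as higher, and the median of the 19 was 0.19. The brightest, Ucp1, the uncoupling protein of brown fat, and Cidea, a lipid droplet protein, read 0.74 and 0.73, and −0.16 and −0.12. The 3 past 2-fold were Dio2 at 1.89 ± 0.32, Slc27a2 at 1.09 ± 0.10 and Elovl3 at 1.02 ± 0.0175. Rora, one of the deleted genes, read −0.42 and −0.35 with 1 probe and −0.54 and −0.40 with another, lower in DKO on each array. The position of these probes relative to the deleted part was not examined. Per channel, 77.6% to 85.4% of the spots passed the background flag, and 4 to 14 spots per channel were saturated, none of them of a chaperone probe.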

How the data were processed

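The authors extracted the scanned images with Agilent Feature Extraction 7.5, as the labels and the submitters' processing notes state. The deposited files hold signals and local backgrounds as intensity on a linear scale, log10 ratios of red over green, a p-value of each ratio, and flags, per the file headers. The series value table, also deposited, gives log2 ratios, whose columns matched red over green within 0.001 for 40962 of 41001 and 41101 of 41141 values, with medians of 0. Its later processing steps were not examined. For this work, normexp (offset 50) and loess within each array were applied to the mean signals with limma 3.58.1 (R 4.3.3). Ratios of dim probes shrink under this offset: the Rora probes read −0.38 and −0.47 here and −0.96 and −1.52 with the software's ratios. Outlier-marked spots were left out, the ratio of array 2 was turned to DKO over WT, and arrays and repeated spots were averaged.

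As 1 replicate per genotype was counted, ratios carry no test. The second deleted gene and 1 of the 8 context lists are not reported here. The members, families and lists were chosen with earlier results of these data known. Named genes were the 4 brightest probes per family and compartment, the 8 highest and 8 lowest means of equal sign on both arrays, the 8 largest gaps between arrays, genes whose probes differed by over 0.3, and the 2 brightest genes and those past 2-fold of each list described. Context lists took each gene by its brightest measured probe under the listed names, which for Hsp90b1 meant only Tra1. Current names came from RefSeq (GRCm38.p6): 43 probes matched by accession, 13 by symbol and 1 by an older symbol. The method was tested on simulated arrays, with changes larger than any member's mean and no dye effect shared by the arrays. That test does not cover changes as small as those of the members. Tables and plots were made with pandas 2.3.3, numpy 2.4.6 and matplotlib 3.10.9 (Python 3.11.15).

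Alternatives were the software's ratios, the value table, offset 16, median centring, median pixel signals, a loess fit on detected probes, other dim filters, lower size thresholds, the deposited p under 0.01, 1 probe per gene name and each array alone. Of the marker lists beside muscle and brown adipocytes, the medians were −0.0003 for adipocytes of any kind, 0.0202 for macrophages, −0.0420 for endothelium, 0.0003 for lymphocytes and −0.0141 for smooth muscle, with no gene past 2-fold.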

Additional observations from a re-analysis of the deposited data

How the results depend on the processing

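The counts of 0 members at least 2-fold higher and 0 lower held in every setting run at that size, with both arrays or with 1, and the lowest size, a log2 of 0.32, took 1 probe as higher. Over the other ratios from both arrays, also chosen after seeing the data at the lower sizes, 0 to 1 probe passed 1.5-fold and 1 to 8 the lowest size as higher, and 0 as lower. The 18 probes above 0 on both arrays became 28 with median centring, where all measured probes also shifted (a median of 0.0412, with 23.2% above 0 on both). They became 28 of 98 with current names added and 8 of 30 among probes of average log2 intensity of at least 8. The 4 below 0 on both became 1 with median centring, 2 with 1 probe per gene name, 10 with current names and 2 among the brighter probes. With 1 array alone, 27 to 44 probes lay above 0 and 13 to 30 below. Without array 1 the median was 0.11, and without array 2 it turned to −0.0137. Over the other settings the median stayed between 0.0425 and 0.14. The additions by current name and by intensity were chosen after seeing the data. Under the 6 settings with other ratios from both arrays, 12 of 57 probes changed the sign of the mean and 45 kept it. For 7 of the 12 the sign turned with median centring alone, the setting that shifts all probes. No paired analysis was possible because no test was made. Each ratio already sets DKO against WT within 1 array. Dim signal over background limits the small ratios: the software's ratio for Dnajb9 was 0.68 against 0.28, and for the Hspb7 probe on 10 spots 0.42 against 0.19.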
